A study of Mus musculus with 15 samples.

Results

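Acta2, Tagln, Cnn1, Cnn2, Myl9, Tpm1, Tpm2, Actn1, Vcl and Srf are contractile cytoskeleton genes of the program driven by serum response factor (SRF), together with the gene of that factor itself. They were taken by name, with no measured value in the rule, but with earlier results of these data known. Shares over all genes set beside their counts are therefore descriptions. All 10 had a row among the 24134 genes of each count table. The libraries came from articular chondrocytes, the cells of joint cartilage, taken by the study from the knee-side ends of femur and tibia (condyles and plateaus) of ICR mice 4 to 5 days old and labelled as passage 0. The study knocked down or inhibited tankyrase, a poly(ADP-ribose) polymerase made by the Tnks and Tnks2 genes, and asked how cartilage matrix genes respond. In the siRNA table, 3 libraries from cells given control siRNA (siCtrl) stood against 3 from cells given siRNAs to Tnks and Tnks2 together (siTnks/2), both delivered with METAFECTENE PRO. In the drug table, 3 libraries from cells given vehicle (DMSO) stood against 3 from cells given 10 μM XAV939 and 3 from cells given 10 μM IWR-1, each for 108 h. XAV939 and IWR-1 are small-molecule tankyrase inhibitors. How long the transfected cells were kept is not given in the sources used here. The study describes the 3 libraries of a group as biological replicates, and the labels number them without naming animals, so the p-values measure the spread between these libraries.

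SRF binds a short DNA element called the CArG box and needs partner proteins to switch genes on. The myocardin-related factors MRTF-A and MRTF-B are held in the cytoplasm by monomeric actin, and they reach SRF when actin is built into filaments, as happens in spread, contractile cells. The ternary complex factors ELK1, ELK3 and ELK4 lead SRF instead to immediate-early genes, which answer growth signals. In cartilage cells, strong actin stress fibres and smooth muscle actin are known companions of a flattened, fibroblast-like shape in culture.

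The stretches in front of 5 of the genes are given first, to show where the element that SRF binds, or a close form of it, was found. The RefSeq promoter table for GRCm38.p6 had an entry for 9 of the 10 genes, all but Tagln, and each entry ran from 250 bases before to 50 bases after the annotated start. The CArG box, a 10-base element, was searched on both strands in its strict form and also with 1 departure from it, called CArG-like below. Of the 9 entries, 4 held a strict CArG box, those of Cnn2, Myl9, Vcl and Srf, and the entries of Acta2 and Tpm1 held CArG-like matches only. Cnn1, Tpm2 and Actn1 had neither in this window. Among all 32851 promoters of the table, 1.63% held a strict box and 21.1% held at least a CArG-like match. Since the genes were picked as SRF genes, the share among them is a description. The 250 bases upstream of 5 of the genes follow, 5′ to 3′ on the strand of the gene. Capitals mark strict CArG boxes in Srf, Cnn2, Myl9 and Vcl, and CArG-like matches in Acta2.
Srf, chr17:46556163-46556412, minus strand: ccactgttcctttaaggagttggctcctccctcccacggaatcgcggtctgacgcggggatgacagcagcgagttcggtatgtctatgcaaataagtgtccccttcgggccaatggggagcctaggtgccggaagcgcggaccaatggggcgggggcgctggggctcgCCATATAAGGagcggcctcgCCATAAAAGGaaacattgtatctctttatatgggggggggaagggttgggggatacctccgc
Cnn2, chr10:79988350-79988599, plus strand: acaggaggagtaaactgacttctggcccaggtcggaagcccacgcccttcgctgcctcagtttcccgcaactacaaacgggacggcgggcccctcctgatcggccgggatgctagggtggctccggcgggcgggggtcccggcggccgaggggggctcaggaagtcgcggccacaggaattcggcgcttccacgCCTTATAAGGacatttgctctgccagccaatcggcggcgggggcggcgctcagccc
Myl9, chr2:156775214-156775463, plus strand: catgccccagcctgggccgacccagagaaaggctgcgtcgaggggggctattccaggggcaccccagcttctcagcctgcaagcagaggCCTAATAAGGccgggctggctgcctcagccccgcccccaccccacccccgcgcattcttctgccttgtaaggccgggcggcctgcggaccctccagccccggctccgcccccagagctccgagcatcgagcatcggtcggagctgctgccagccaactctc
Vcl, chr14:20929148-20929397, plus strand: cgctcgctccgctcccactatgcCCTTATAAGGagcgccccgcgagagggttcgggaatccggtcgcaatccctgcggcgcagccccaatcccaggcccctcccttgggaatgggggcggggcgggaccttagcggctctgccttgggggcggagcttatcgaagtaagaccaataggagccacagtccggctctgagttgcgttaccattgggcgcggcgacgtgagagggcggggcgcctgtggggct
Acta2, chr19:34255374-34255623, minus strand: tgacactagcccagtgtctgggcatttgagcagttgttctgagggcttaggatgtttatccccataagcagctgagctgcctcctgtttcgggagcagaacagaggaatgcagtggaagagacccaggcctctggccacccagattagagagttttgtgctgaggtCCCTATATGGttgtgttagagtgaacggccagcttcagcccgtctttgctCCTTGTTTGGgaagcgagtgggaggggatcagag
Counted back from the start site, the first base of the box lay 82 and 62 bases upstream in Srf, 56 in Cnn2, 161 in Myl9 and 227 in Vcl. The matches in Acta2 began 84 and 34 bases upstream. A match says that the letters are there and not that SRF sat on them in these cells.

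Total counts per library ran from 26857070 to 36615194. Tnks stood at 58.4 to 70.1 CPM (counts scaled to the size of the library) in siCtrl and at 12.7 to 24.0 in siTnks/2, a fall of 1.81 on the log2 scale (SE 0.22, adjusted p = 0.00569), and Tnks2 fell by 1.10 (SE 0.11, adjusted p = 0.00384). The chondrocyte markers were high throughout, with Col2a1, the main collagen of cartilage, between 20881 and 142760 CPM, Acan between 570 and 20382, and Sox9 between 101 and 247. Of 8 mural and smooth muscle markers, Myh11, the smooth muscle myosin heavy chain, stayed at or below 0.972 CPM in every library. Cspg4, also a proteoglycan of cartilage cells, made up a large share of their summed level. Pdgfrb, another of the 8, stood at 149 to 177 CPM in siCtrl and at 94.6 to 109 in DMSO. Notch3 stood at 5.72 to 6.47 and 10.4 to 18.4 CPM in these groups, and Mcam at 9.55 to 15.6 and 3.26 to 4.12. In siCtrl 4 of the 8 had a mean under 1 CPM, and in DMSO 3. The 8 skeletal muscle markers summed to at most 8.43 CPM, the 6 leukocyte markers to at most 15.3, and the 6 endothelial markers to at most 1.59 CPM in every library except siTnks/2 replicate 2, where they summed to 8.13 with Pecam1 at 3.17 and Cdh5 at 2.28. That library stood apart in another way too: it was the lowest of its 3 for all 10 contractile genes and had the lowest Tnks, 12.7 CPM, and the lowest Tnks2, 44.9 CPM. Results are therefore also given without it. In the drug table, DMSO replicate 3 was the lowest DMSO library for 8 of the 10 genes and read 64.1 CPM for Tnks, beside 20.02 and 26.2 in the other DMSO libraries.

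The levels of the genes differed widely between the control groups of both tables. The tables were normalized separately and differ in transfection, so levels are set side by side here without a test. Acta2, smooth muscle α-actin, stood at 793, 1081 and 691 CPM in siCtrl replicates 1, 2 and 3 and at 26.1, 24.2 and 12.9 CPM in DMSO replicates 1, 2 and 3. For Myl9, a myosin regulatory light chain, the means were 81.2 ± 22.3 CPM in siCtrl and 4.31 ± 1.37 CPM in DMSO (SD, n = 3). The means of Tpm1, a tropomyosin, were closer, at 574 ± 34.0 and 311 ± 39.4 CPM. Every siCtrl library lay above every library of the drug table for all 10 genes, as for 14% of the 14271 genes tested in both tables together. The group mean was highest in siCtrl and next highest in siTnks/2 for all 10, and for 5 of them, Acta2, Tagln, Myl9, Actn1 and Vcl, even the lowest siTnks/2 library lay above the highest library of the drug table, as for 15.1% of all genes. The chondrocyte markers summed to 83044 to 111578 CPM in siCtrl and 25310 to 34152 in DMSO. The fibroblast and tendon markers summed to 81.0 to 108 and 226 to 338 CPM. What part these markers had in the levels of the 10 genes was not tested.

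Divided by exon length, the order of the genes changed with the culture. In siCtrl, Acta2 led with 389 ± 92.1 CPM per kb of exon, followed by Tagln with 164 ± 40.4 and Cnn2 with 127 ± 9.99. These neighbours, Tagln and Cnn2, overlapped within their spread, as did Tpm1 (88.5 ± 5.24), Actn1 (80.4 ± 8.16), Tpm2 (78.6 ± 8.28) and Myl9 (69.9 ± 19.2). Vcl (32.7 ± 1.80), Srf (15 ± 1.43) and Cnn1 (2.31 ± 0.749) closed the order, each clear of the next. In DMSO, Tpm1 led with 48.0 ± 6.07 CPM per kb, followed by Cnn2 with 41.6 ± 10.4, Tpm2 with 34.8 ± 4.75 and Actn1 with 34.4 ± 4.11. Acta2 was then eighth of the 10, at 9.61 ± 3.24, beside Srf at 9.84 ± 0.648. Cnn1 was last in both controls, and in the drug table it rested on only 11 to 39 reads a library, so its changes there are loosely bounded.

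**Figure D1:**
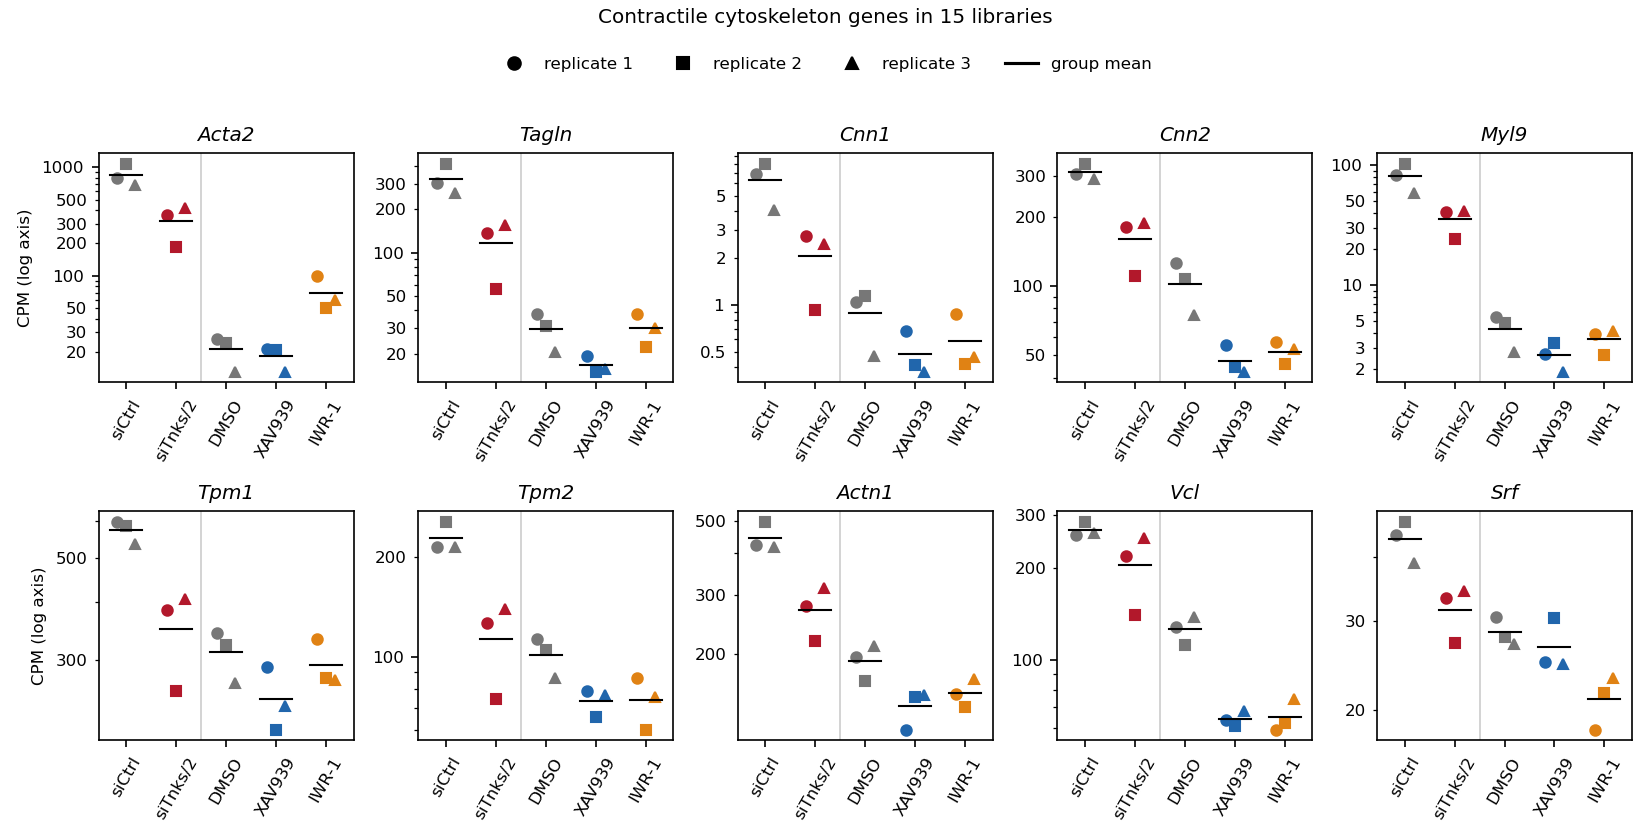
CPM (log axis) of the 10 genes in each of the 15 libraries, by group. Marker shape gives the replicate number, the black line the group mean, and the grey line parts the siRNA table from the drug table. In siTnks/2, replicate 2 (square) is the lowest point for every gene, and Acta2 is the only gene whose IWR-1 points all lie above its DMSO points.

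Knockdown of Tnks and Tnks2 was accompanied by lower levels across nearly the whole set. In the edgeR quasi-likelihood test with Benjamini-Hochberg adjustment over all 13672 genes tested, 9 of the 10 genes fell and none rose, against 7.61% of all genes called lower and 10.4% called higher. The siTnks/2 and siCtrl libraries did not overlap for any of the 10, with siTnks/2 lower each time, as for 22.2% of all genes. Across the 10 genes the median fitted change was -0.99 on the log2 scale, beside -0.0012 for all genes. In RNA from a whole culture, fewer cells that express a gene and less of its RNA per cell cannot be told apart.

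Beside these falls, the 8 chondrocyte markers summed to 83044 to 111578 CPM in siCtrl and to 117542 to 192864 in siTnks/2, with 2 of 8 called higher. The mural markers summed to 723 to 774 and 849 to 956 CPM, with 1 of 7 tested called higher and 1 lower. Of these 7, 5 had a fitted change below 0 and 2 above. Cspg4, the largest part of the sum, stood at 546 to 601 CPM in siCtrl and 687 to 824 in siTnks/2. Pdgfrb stood at 149 to 177 and 113 to 164 CPM, and Notch3 at 5.72 to 6.47 and 3.79 to 4.03. The fibroblast and tendon markers summed to 81.0 to 108 and 75.9 to 87.7, with 1 of 6 called lower. Over all genes, 10.4% were called higher and 7.61% lower. The part of these markers in the result was not tested.

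The genes of the actin filament itself are given first. Acta2, gene 11475 at chr19:34240336-34255585, read 362, 184 and 423 CPM in siTnks/2 replicates 1 to 3, all below the lowest siCtrl library at 691. On the log2 scale it fell by 1.40 (SE 0.31, 95% interval -2.15 to -0.66, adjusted p = 0.0268), or 2.65-fold. Its coding sequence is nearly the same as that of other actins, so reads in shared stretches are uncertain between them. Tagln, gene 21345 at chr9:45929628-45936058, encodes SM22, which bundles actin filaments in smooth muscle. Its levels were 302, 415 and 259 CPM in siCtrl and 138, 56.6 and 157 in siTnks/2, a fall of 1.47 (SE 0.37, adjusted p = 0.0376). Calponin-1, the product of Cnn1 and an actin-binding brake on myosin, had the lowest RNA level of the set, with 6.87, 8.02 and 4.04 CPM in siCtrl and 2.78, 0.927 and 2.45 in siTnks/2. Cnn1, gene 12797 at chr9:22099221-22109221, fell by 1.58 (SE 0.41, adjusted p = 0.0403).

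The other calponin, the tropomyosins and the myosin light chain were lower in every siTnks/2 library too. Cnn2, gene 12798 at chr10:79988600-79995400, is the calponin of non-muscle cells and went from 306, 339 and 291 CPM to 180, 111 and 187, a fall of 0.97 (SE 0.19, adjusted p = 0.0194). Tropomyosins are the coiled rods that lie along actin filaments and gate myosin. Tpm1, gene 22003 at chr9:67022590-67049672, fell by 0.71 (SE 0.17, adjusted p = 0.0326), from 535 to 599 CPM in siCtrl to 256 to 408 in siTnks/2. Tpm2, gene 22004 at chr4:43513726-43523583, read 214, 257 and 215 CPM in siCtrl and 127, 74.6 and 140 in siTnks/2, a fall of 1.01 (SE 0.22, adjusted p = 0.0254). The count per gene does not separate tropomyosin isoforms. Myl9, gene 98932 at chr2:156775408-156781657, carries the phosphorylation switch of smooth muscle and non-muscle myosin and went from 82.3, 103 and 58.3 CPM to 40.8, 24.1 and 41.6, a fall of 1.19 (SE 0.27, adjusted p = 0.0268).

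The genes of the filament anchors and of SRF come next. Actn1, gene 109711 at chr12:80167542-80260420, encodes α-actinin-1, which crosslinks actin and ties it to adhesions. It stood at 421, 497 and 416 CPM in siCtrl and at 277, 218 and 315 in siTnks/2, a fall of 0.72 (SE 0.14, adjusted p = 0.0193). Vinculin, the product of Vcl, links talin at focal adhesions to actin, and Vcl, gene 22330 at chr14:20929383-21033676, was the one gene of the set that did not pass. Its levels were 258, 285 and 261 CPM in siCtrl and 220, 141 and 252 in siTnks/2, and the fitted log2 change was -0.39 (SE 0.20, 95% interval -0.86 to 0.08, adjusted p = 0.202). The third siTnks/2 library lay only just under the lowest siCtrl library, and replicate 2 lay well under both others. Srf itself, gene 20807 at chr17:46546838-46558267, read 44.3, 47.1 and 38.9 CPM in siCtrl and 33.3, 27.1 and 34.4 in siTnks/2, a fall of 0.46 (SE 0.11, adjusted p = 0.0357).

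The direction of the knockdown result was steady and its calls were not. Leaving out siCtrl replicate 1, siCtrl replicate 2 or siTnks/2 replicate 1 left 0 of the 10 genes called, and leaving out siCtrl replicate 3 left 1, Myl9. Over all genes, the calls in those fits dropped too, from 2459 to between 608 and 930. Among the 9 genes called with all libraries, adjusted p went up to 0.123 with a library left out. Without siTnks/2 replicate 2, the low library, 9 genes were still called lower, and without siTnks/2 replicate 3, 8. The shares of all genes called without siTnks/2 replicate 2 or 3 are not given here, so these counts were not set against them. All 10 log2 fold changes were negative in every fit with a library left out.

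**Figure D2:**
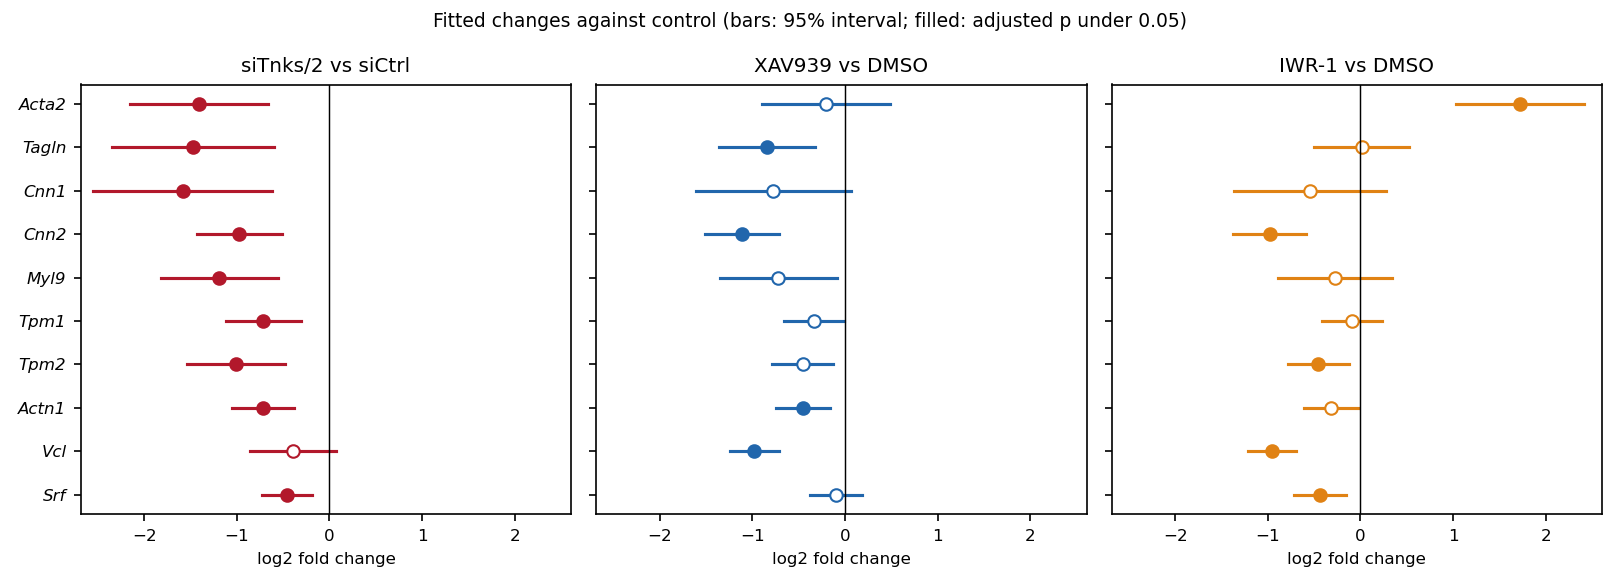
Fitted log2 fold changes of the 10 genes against their own control for knockdown, XAV939 and IWR-1, on 1 shared axis. Bars are 95% intervals and filled points have an adjusted p under 0.05. All knockdown and XAV939 points lie left of 0, and with IWR-1 Acta2 lies at 1.72 while Cnn2 and Vcl lie near -1. The drug panels share their DMSO libraries.

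Taking libraries of the same replicate number as pairs, which their deviations from the group means allowed, every gene was lower in siTnks/2 than in its siCtrl partner in every pair. The median log2 ratio of the 10 genes was -0.76 in pair 1, -1.70 in pair 2 and -0.56 in pair 3. Pair 2 held the deepest ratio for each gene, from -3.11 for Cnn1 to -0.80 for Srf, and it also held the lowest Tnks and the endothelial markers described above. What part those had in the depth of its ratios was not tested. In pair 3 the ratios ran from -0.73 for Tagln to -0.05 for Vcl. The replicate number as a block left the same count, 9 genes lower, beside 16.5% of all genes.

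**Figure D3:**
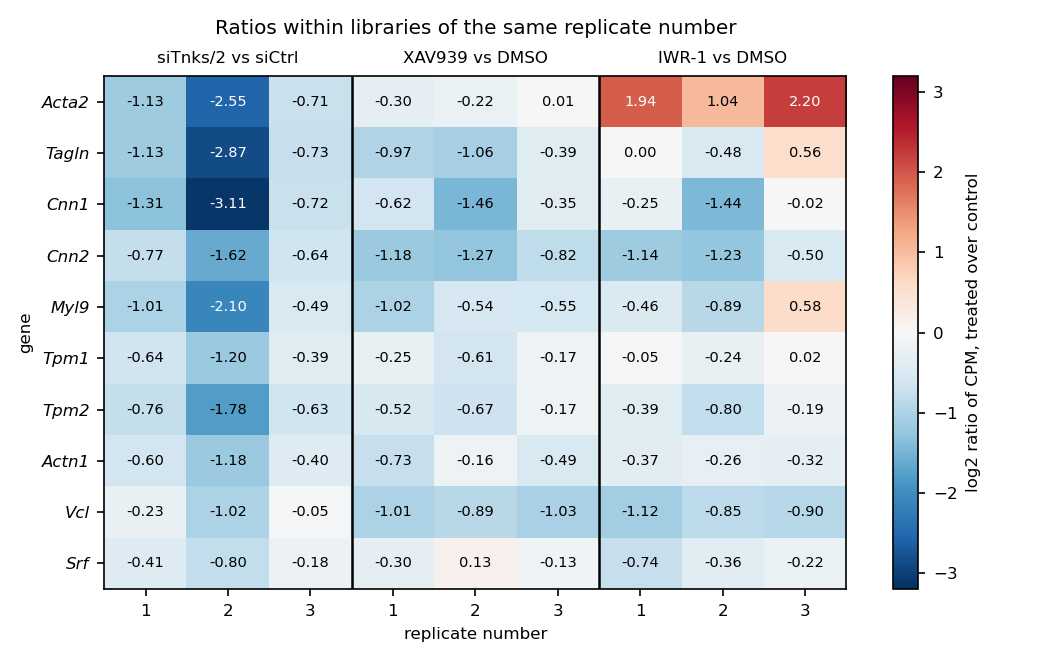
Log2 ratio of CPM, treated over control, within libraries of the same replicate number (columns) for the 10 genes (rows) and the comparisons with a control. Blue is lower and red higher than control. Knockdown pair 2 is the darkest blue column, and Acta2 with IWR-1 is the only row that is red in all 3 pairs of a comparison.

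With XAV939 the adhesion gene Vcl and the calponin Cnn2 fell most, Tagln and Actn1 fell by less, and Acta2 was not called. Against DMSO, 4 of the 10 genes fell and none rose, beside 9.85% of all 13873 genes called lower and 7.57% called higher. The fallen genes were Tagln, Cnn2, Actn1 and Vcl. All 10 log2 fold changes were below 0, with a median of -0.59 beside 0.02 for all genes. The libraries of the groups did not overlap for 5 genes, those 4 and Tpm2, as for 16.8% of all genes in the lower direction. The fibroblast and tendon markers summed to 226 to 338 CPM in DMSO and to 106 to 174 with XAV939, with 3 of 6 called lower, beside 9.85% of all genes. The chondrocyte markers summed to 25310 to 34152 and 34151 to 50673, with 2 of 8 called higher, beside 7.57% of all genes. What part these markers had in the members' values was not tested.

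Vcl went from 128, 112 and 139 CPM in DMSO to 63.8, 60.8 and 68.1 with XAV939, a fall of 0.98 on the log2 scale (SE 0.12, adjusted p = 0.000452). Its libraries were tight in both groups, and the call held in all 16 alternative fits. Cnn2 was at 125, 107 and 74.9 CPM in DMSO and at 55.2, 44.4 and 42.3 with XAV939, a fall of 1.11 (SE 0.18, adjusted p = 0.00231), also called in all 16. Tagln fell by 0.84 (SE 0.24, adjusted p = 0.033), from 37.8, 31.2 and 20.5 CPM to 19.3, 14.9 and 15.7. Its call went when DMSO replicate 1, DMSO replicate 2, XAV939 replicate 2 or XAV939 replicate 3 was left out, with adjusted p up to 0.133. Actn1 fell by 0.46 (SE 0.13, adjusted p = 0.0365), from 196, 166 and 210 CPM to 118, 148 and 150, and that call was lost without DMSO replicate 1, DMSO replicate 3, XAV939 replicate 1, XAV939 replicate 2, IWR-1 replicate 1 or IWR-1 replicate 2, and also with upper-quartile scaling or a fit of the compared groups alone, with adjusted p up to 0.127. Without DMSO replicate 1 or XAV939 replicate 2, only 2 of the 10 genes were called, Cnn2 and Vcl.

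The other 6 genes did not pass with XAV939. Acta2 read 21.2, 20.8 and 13.1 CPM, inside the range of the DMSO libraries, and its log2 fold change was -0.20 (95% interval -0.89 to 0.49, adjusted p = 0.692). Srf read 24.9, 30.4 and 24.7 CPM against 30.6, 27.9 and 27.0 in DMSO, a log2 fold change of -0.09 (95% interval -0.37 to 0.18, adjusted p = 0.641). These groups overlapped. Cnn1 (-0.77, adjusted p = 0.187), Myl9 (-0.72, adjusted p = 0.108), Tpm1 (-0.34, adjusted p = 0.138) and Tpm2 (-0.46, adjusted p = 0.0574) had larger fitted values without a call. With the replicate number as a block, 7 genes were lower, beside 17.4% of all genes, the added ones being Myl9 (adjusted p = 0.0461), Tpm1 (adjusted p = 0.0202) and Tpm2 (adjusted p = 0.00983). The pairing by number behind that block was not clear for replicate 2 of the drug table.

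With IWR-1 the genes did not move together. Acta2 rose, Vcl, Cnn2, Tpm2 and Srf fell, and the fitted value of Tagln was near 0. That made 1 gene higher and 4 lower of 10, beside 16.2% of all 13873 genes called higher and 20.2% called lower. The shares over all genes are larger here than in the other comparisons, and the count for the members is to be read against them. Groups without overlap were found for Acta2 upward, as for 24.7% of genes, and for Cnn2, Vcl and Srf downward, as for 26.4%. Their median fitted change was -0.38, beside 0.01 for all genes.

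Acta2 reached 100, 49.9 and 59.7 CPM with IWR-1, every one above the highest DMSO library at 26.1. The fitted log2 change was 1.72 (SE 0.31, 95% interval 1.03 to 2.42, adjusted p = 0.00147), or 3.31-fold, and the 16 alternative fits, all of which called it, gave 1.37 to 1.92. Even so, the highest IWR-1 library stayed below the lowest siTnks/2 library, at 184 CPM. The mural markers beside it moved in both directions. Cspg4 stood at 119 to 185 CPM in DMSO and 411 to 543 with IWR-1, and Pdgfrb at 94.6 to 109 and 112 to 132. Notch3 fell by 2.92 on the log2 scale (SE 0.24, adjusted p = 1.01e-05), and Myh11 stayed at or below 0.464 CPM. The summed level of the mural markers was 243 to 315 CPM in DMSO and 538 to 660 with IWR-1. None of the 8 was at 0 in all libraries of either group. Chondrocyte markers rose alongside, all 8 of them, beside 16.2% of all genes, with Acan up by 2.95 (SE 0.24, adjusted p = 1.12e-05). The fibroblast and tendon markers fell in sum from 226 to 338 CPM to 69.6 to 122, with 4 of 6 called lower, beside 20.2% of all genes. What part the marker changes had in the rise of Acta2 was not tested.

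Tagln, which like Acta2 is a marker of smooth muscle, stood at 37.8, 22.3 and 30.4 CPM with IWR-1 and at 37.8, 31.2 and 20.5 in DMSO. The groups overlapped fully, and the log2 fold change was 0.02 (95% interval -0.50 to 0.53, adjusted p = 0.968). Cnn1 (-0.54, adjusted p = 0.287), Myl9 (-0.28, adjusted p = 0.481) and Tpm1 (-0.09, adjusted p = 0.673) overlapped with DMSO as well.

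The falls with IWR-1 lay in Vcl, Cnn2, Srf and Tpm2. Vcl read 58.9, 62.3 and 74.4 CPM, a fall of 0.95 (SE 0.12, adjusted p = 0.000123). Cnn2 was at 56.9, 45.7 and 53.1 CPM, a fall of 0.98 (SE 0.18, adjusted p = 0.00155), and both calls held in all 16 alternative fits. Srf, the gene of the factor itself, read 18.3, 21.7 and 23.2 CPM, all below the lowest DMSO library at 27.0, a fall of 0.43 (SE 0.13, adjusted p = 0.0201). Its call was lost without DMSO replicate 1, IWR-1 replicate 1 or IWR-1 replicate 2, with adjusted p up to 0.0891. Tpm2 at 86.3, 60.2 and 75.6 CPM fell by 0.45 (SE 0.15, adjusted p = 0.0347), its groups just touching, and lost its call without DMSO replicate 1, DMSO replicate 2, IWR-1 replicate 2 or IWR-1 replicate 3. Actn1 had a fitted log2 change of -0.32 (SE 0.13, adjusted p = 0.0811), which passed with the replicate block (adjusted p = 0.0275). Without DMSO replicate 1 or IWR-1 replicate 2, 3 of the 10 genes were called.

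XAV939 and IWR-1 were given at the same dose for the same time, so their libraries could be compared directly, as 1 pair of compounds. Acta2 and Tagln were higher with IWR-1, and no member was called lower, beside 7.37% of genes called higher and 10.2% called lower. Acta2 differed by 1.93 on the log2 scale (SE 0.32, 95% interval 1.23 to 2.63, adjusted p = 0.00227), and Tagln by 0.85 (SE 0.24, 95% interval 0.33 to 1.37, adjusted p = 0.0301). The lowest IWR-1 library exceeded the highest XAV939 library for both, at 49.9 against 21.2 CPM for Acta2 and 22.3 against 19.3 for Tagln, as for 18.2% of all genes. The Tagln call went without IWR-1 replicate 1, IWR-1 replicate 3, XAV939 replicate 2 or XAV939 replicate 3, with adjusted p up to 0.111. The Acta2 call held in all 16 alternatives.

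For the other genes the drugs were not told apart, within intervals that vary in width. Vcl differed by 0.02 (95% interval -0.24 to 0.28) and Tpm2 by 0.0045 (95% interval -0.32 to 0.33). Cnn2 differed by 0.13 (95% interval -0.26 to 0.53) and Actn1 by 0.14 (95% interval -0.15 to 0.43). Tpm1 had a difference of 0.25 (95% interval -0.08 to 0.57). The intervals for Cnn1 (-0.64 to 1.09) and Myl9 (-0.19 to 1.08) were the widest of these. Srf was lower with IWR-1 by a log2 difference of -0.34 (95% interval -0.62 to -0.06, adjusted p = 0.0909), and passed with the replicate block (adjusted p = 0.0461).

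Each drug effect was also set against the knockdown effect in 1 model of all 15 libraries. The IWR-1 effect on Acta2 exceeded that of knockdown by 3.12 on the log2 scale (SE 0.48, 95% interval 2.10 to 4.14, adjusted p = 0.000348), called in all 21 alternative fits. For Tagln the difference was 1.48 (SE 0.45, adjusted p = 0.0256), lost without DMSO replicate 3, IWR-1 replicate 1 or siCtrl replicate 2. These were 2 of the 10 genes, beside 10.5% of all 14271 genes called higher and 13.9% called lower. No gene of the set was called for XAV939 against knockdown, beside 13.5% of all genes in either direction. At a threshold of 0.05 before adjustment there were 2 of them, Acta2 (difference 1.19, adjusted p = 0.111) and Vcl (difference -0.60, adjusted p = 0.0989), in the edgeR quasi-likelihood test, and DESeq2 also called 0 of the 10. Without siTnks/2 replicate 2, Vcl was called. With the replicate block, where 28.2% of all genes were called, Acta2 (1.26, adjusted p = 0.0348) and Vcl (-0.56, adjusted p = 0.0486) passed for XAV939, and Tpm1 (0.64, adjusted p = 0.0128) and Vcl (-0.54, adjusted p = 0.0469) joined Acta2 and Tagln for IWR-1, beside 36.3% of all genes. The transfected and the drug-treated cultures differ in handling and in control level, which cannot be told apart from the agent in these differences.

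**Figure D4:**
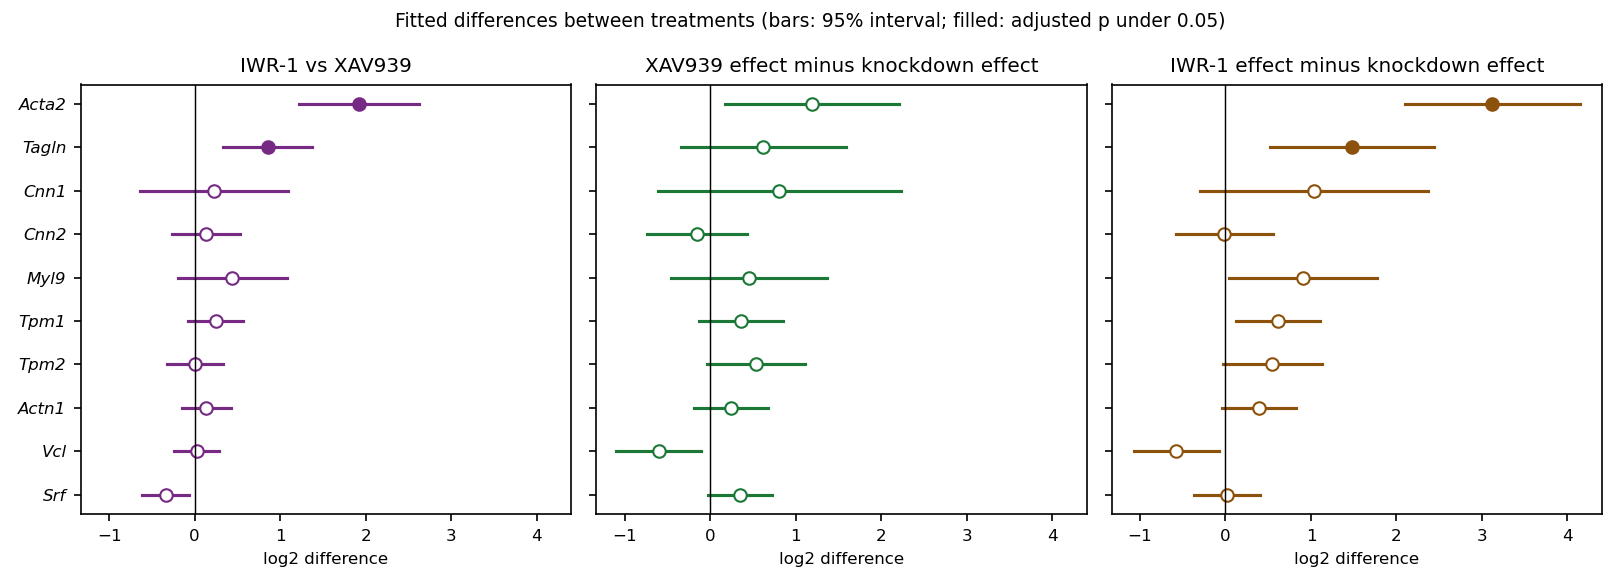
Fitted log2 differences between treatments for the 10 genes, on 1 shared axis: IWR-1 against XAV939, and each drug effect minus the knockdown effect. Bars are 95% intervals and filled points have an adjusted p under 0.05. Acta2 and Tagln are the filled points in the panels with IWR-1, and most intervals in the middle panel cross 0.

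The partners of SRF were measured alongside, and 1 of 6 fell with knockdown, 1 of 5 tested with XAV939 and 2 of 5 with IWR-1, while none rose. In the same order, 7.61%, 9.85% and 20.2% of all genes were called lower, and 10.4%, 7.57% and 16.2% higher. The small counts for the partners were not tested against these shares. Mrtfa, the gene of MRTF-A, fell by 0.27 (SE 0.08, adjusted p = 0.0483) with knockdown, where the call remained in only 1 of 6 fits with a library left out, and by 0.61 (SE 0.13, adjusted p = 0.00311) with IWR-1. With XAV939 it had -0.36 on the log2 scale (SE 0.13, adjusted p = 0.0695, and 0.0205 with the replicate block). Mrtfb, of MRTF-B, did not pass in any comparison, with log2 fold changes of -0.01, -0.15 and 0.12 for knockdown, XAV939 and IWR-1. Elk3, a ternary complex factor, fell with both drugs, by 0.63 (SE 0.10, adjusted p = 0.00227) with XAV939 and by 1.16 (SE 0.10, adjusted p = 1.72e-05) with IWR-1, and had -0.24 with knockdown (adjusted p = 0.0699, and 0.0139 with the replicate block). Elk1 and Elk4 were not called anywhere. Myocd, the gene of myocardin, the strongest smooth muscle partner of SRF, stood at 0.143 to 0.489 CPM in the siRNA table and at 0 to 0.126 in the drug table, where it was too low to test, and a count of 0 in DMSO replicate 2 allows, for counting error only, up to 0.0873 CPM.

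Beyond the 10 genes, 28 other contractile and adhesion genes were listed and all were tested. With knockdown 11 fell and 1 rose, with a median log2 fold change of -0.62, beside 7.61% of all genes called lower and 10.4% called higher. With the replicate block 20 fell and 2 rose, beside 16.5% and 18.1%. The fallen ones included Lmod1, of leiomodin, which nucleates actin filaments (-1.55, adjusted p = 0.0337), and Tgfb1i1, of the adhesion protein Hic-5 (-0.93, adjusted p = 0.0136). Lmod1 was low, at 1.14 to 3.30 CPM in siTnks/2, and kept its call in 2 of 6 fits with a library left out. Tgfb1i1 kept its call in 4 of 6. The one that rose was Mylk, of myosin light chain kinase, from 15.4, 14.9 and 15.3 CPM to 29.8, 23.8 and 33.7, by 0.93 (SE 0.13, adjusted p = 0.00773), in all 6 fits with a library left out. With XAV939 7 of the 28 fell and none rose, beside 9.85% of all genes called lower and 7.57% called higher, and with the block 13 fell and 1 rose, beside 17.4% and 16%. The falls were led by Filip1l (-1.44, adjusted p = 0.00293) and Fhl1, a LIM-domain protein of muscle (-1.37, adjusted p = 0.000158). With IWR-1 14 fell and 1 rose, beside 20.2% of all genes called lower and 16.2% called higher. The one that rose was Cnn3, the third calponin, by 0.33 (adjusted p = 0.0404), a call kept in 3 of 9 fits with a library left out. Filip1l (-1.84, adjusted p = 0.000221) and Csrp2, another LIM-domain protein (-1.52, adjusted p = 6.37e-05), led the falls, and Mylk fell by 0.90 (adjusted p = 0.000192). With a library left out, the number called ranged from 3 to 20 for knockdown, 3 without siCtrl replicate 1 or siTnks/2 replicate 1, from 6 to 10 for XAV939, and from 9 to 17 for IWR-1, 9 without IWR-1 replicate 2.

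The immediate-early genes are the other branch of SRF targets, and their change was not tested against that of the contractile genes. All 7 fell with IWR-1, beside 20.2% of all genes, in every fit with a library left out, with a median log2 fold change of -2.16. With XAV939 5 fell, beside 9.85% of all genes, with a median of -1.17, and 3 without DMSO replicate 1. With knockdown, where 7.61% of all genes were called lower, 1 of the 7, Egr1, fell, by 0.60 (SE 0.14, adjusted p = 0.0304), a call lost without siCtrl replicate 2, siCtrl replicate 3 or siTnks/2 replicate 1, and the median was -0.18. Fos read 19.4, 16.6 and 18.3 CPM in DMSO, 5.23, 6.34 and 9.32 with XAV939 and 2.30, 2.89 and 3.80 with IWR-1, and had -0.18 with knockdown (adjusted p = 0.771). Fosb (-1.80 with XAV939, adjusted p = 0.000783) and Egr2 (-2.42 with IWR-1, adjusted p = 7.73e-05) were among the largest falls. The drug comparisons share their DMSO libraries, so the values stand side by side and are not independent.

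**Figure D5:**
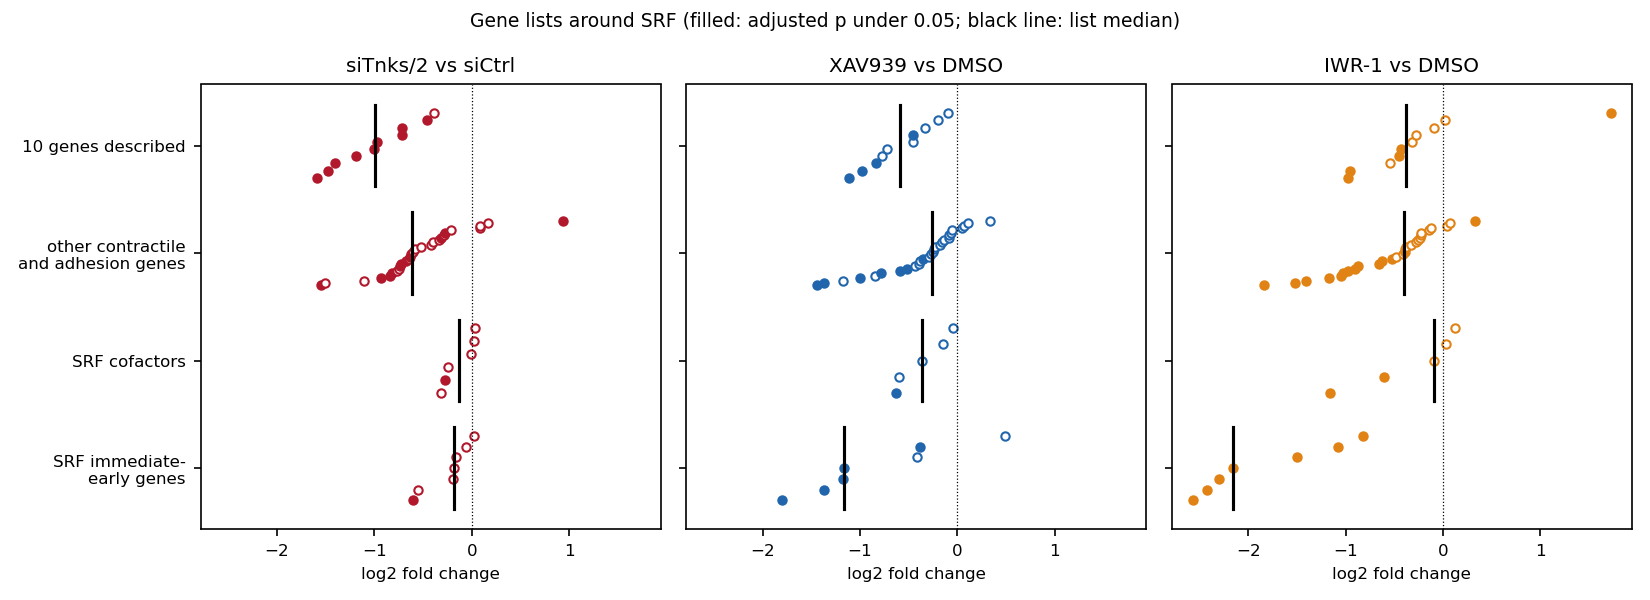
Fitted log2 fold changes of the 10 genes and of 3 lists around SRF in the comparisons with a control, on 1 shared axis. Each point is a gene, filled where the adjusted p is under 0.05, and black lines are list medians. The median of the 10 genes is -0.99 with knockdown and -0.38 with IWR-1, and that of the immediate-early genes is -0.18 and -2.16.

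Within the set, the genes did not vary as 1 unit over the 15 libraries. After centring log2 CPM on the control of each table, Tagln followed the mean of the other members most closely (Pearson r = 0.973), then Myl9 (0.957), Tpm1 (0.950), Tpm2 (0.940) and Cnn1 (0.932), while Actn1 (0.838), Cnn2 (0.737), Srf (0.596), Acta2 (0.529) and Vcl (0.337) followed it less. These correlations are descriptions over 15 libraries that share groups and scaling. Outside all lists, the genes of the 13342 compared whose pattern was most like the members' mean were Anxa3, an annexin (r = 0.967), Vim, the intermediate filament vimentin (r = 0.946), and 9130008F23Rik (r = 0.941). They were picked for their pattern in these same libraries, so their values are a description with no test. For knockdown, XAV939 and IWR-1 the fitted log2 changes of Anxa3 were -1.33, -0.71 and -0.22. Vim, at 3361 to 3664 CPM in siCtrl, had -0.97, -0.32 and -0.12 in the same order. For 9130008F23Rik, at 3.98 to 4.25 CPM in siCtrl, the fitted changes were -1.03, -0.74 and -0.26.

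Other transcripts overlap some of these genes in GENCODE M21. Pcsk7 and the antisense Gm48529 lie opposite Tagln, Ap3m1 opposite Vcl, the long non-coding Gm26904 opposite Srf, antisense RNAs opposite Actn1, and Car9 meets Tpm2 at its end. The library kit keeps strand, but the strand setting of the counting is not given in the sources used here, so reads in these stretches are uncertain.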

How the data were processed

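RNA was measured in 15 libraries of mouse articular chondrocytes prepared with a stranded mRNA kit. The deposited values are raw read counts per gene, made by the authors, per the submitters' processing notes and the methods, with Trimmomatic 0.32, TopHat2 2.0.13 and HTSeq 0.6.1p1 on mm10, in 1 table per experiment. Gene IDs were matched to symbols for 24051 of 24134 rows. The members and lists were chosen with earlier results of these data known.

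Each table was fitted alone with edgeR 4.0.16 (R 4.3.3, limma 3.58.1): genes kept by filterByExpr, TMM scaling, a quasi-likelihood F-test with prior count 2, and Benjamini-Hochberg adjustment over all genes tested. A gene was called at an adjusted p under 0.05, and each test was two-sided. Drug and knockdown effects were compared in 1 model of all 15 libraries. Standard errors were taken from the F statistic. CPM is the count scaled to the TMM-adjusted library size, and CPM per kb divides it by the exon union of GENCODE M21. The fits were tested on simulated data. Alternatives were DESeq2 1.42.0, DESeq2-type size factors in edgeR, upper-quartile scaling, no filter on low counts, a stricter one of 10 counts, for the drugs a fit of the groups compared alone, a replicate block and each library left out.

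Same-numbered libraries deviated together from their group means. Their correlations were 0.487 to 0.554 over 3 pairs in the siRNA table and 0.153 to 0.680 over 9 in the drug table. All lay above the limit of 0.1, so the numbers were taken to pair the libraries. Libraries of different number gave -0.469 to 0.137 in the siRNA table and -0.644 to 0.477 in the drug table. DMSO replicate 2 correlated with replicate 1 of IWR-1 (0.477) and XAV939 (0.422) more than with replicate 2 of IWR-1 (0.322) and XAV939 (0.153). The pairing is thus not clear for replicate 2 of the drug table, and results with the replicate block there rest on it. Libraries of a group differed beyond counting noise. The text names all members, Tnks, Tnks2, 3 chondrocyte genes, the SRF partners, from each other list reported the 2 called genes with the largest rise and the 2 with the largest fall per comparison with a control, and the 3 genes most like the members' mean. Myh11, Pdgfrb, Mcam, Pecam1, Cdh5 and Egr3 were named after their values were seen. Promoters came from RefSeq, GRCm38.p6. A further gene list is not reported here. Strand handling in counting is not given in the sources used here.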

Additional observations from a re-analysis of the deposited data

Results flagged for a closer look

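The tests of differences between treatments called 2 of the 10 genes, each in 2 contrasts. Over all genes, 7.37% were called higher with IWR-1 than with XAV939, and 17.6% in either direction. For the IWR-1 effect against the knockdown effect these shares were 10.5% and 24.4%. The count of 2 of 10 is to be read against the shares in either direction. Acta2 was higher with IWR-1 than with XAV939 by 1.93 on the log2 scale (SE 0.32, adjusted p = 0.00227), and its IWR-1 effect exceeded the knockdown effect by 3.12 (SE 0.48, adjusted p = 0.000348). Tagln was higher with IWR-1 than with XAV939 by 0.85 (SE 0.24, adjusted p = 0.0301), and its IWR-1 effect exceeded the knockdown effect by 1.48 (SE 0.45, adjusted p = 0.0256). Both Tagln calls were lost in some fits with a library left out, while both Acta2 calls held in all of them. All p-values are from the edgeR quasi-likelihood test. The contrasts share the 3 IWR-1 libraries.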

How the results depend on the processing

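With a library left out, the number of the 10 genes called ranged from 0 to 9 for knockdown, 2 to 5 for XAV939, 3 to 5 for IWR-1, 1 to 2 for IWR-1 against XAV939, 0 to 1 for XAV939 against knockdown and 1 to 3 for IWR-1 against knockdown. With the replicate block the counts were 7 for XAV939, 2 for XAV939 against knockdown and 4 for IWR-1 against knockdown, and beside Actn1 with IWR-1 and Srf between the drugs it changed no other call among the members. DESeq2 called Tpm1 for IWR-1 against knockdown and Tpm2 with XAV939, and no filter on low counts called Tpm2 with XAV939. Upper-quartile scaling and the fit of the compared groups alone lost Actn1 with XAV939. Upper-quartile scaling gave -0.018 for Tpm2 and -0.00126 for Vcl between the drugs, and 0.020 for Cnn2 in IWR-1 against knockdown. The replicate block gave -0.0034 and 0.038 for Tpm2 and Cnn2 in those contrasts. With a library left out, uncalled values changed sign within -0.20 to 0.22 for Tagln with IWR-1, and between the drugs within -0.13 to 0.52 for Cnn1, -0.11 to 0.13 for Tpm2 and -0.079 to 0.10 for Vcl. Against knockdown they did so within -0.35 to 0.021 for Cnn2 with XAV939, and within -0.23 to 0.14 for Cnn2 and -0.091 to 0.089 for Srf with IWR-1. The cause was not tested. Of the members' log2 values under these alternatives, 909 kept their direction and side of the threshold, 62 lost a call, 20 gained one and 29 changed sign. Cnn1 is limited by its 11 to 39 reads a library in the drug table.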
